A study of Homo sapiens with 18 samples.

Results

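Clones that had lost caspase-2, or were labelled as having lost it, were compared with their parental cells in 2 human acute myeloid leukaemia lines, and the change was set against itself between the lines. The quantity examined was the change from parental cells to clones in OCI-AML3 minus the same change in OCI-AML2. All 18 of the 18 libraries of the series entered it. OCI-AML2 carries wild-type NPM1 and OCI-AML3 carries the leukaemic NPM1c+ allele, whose product is moved from the nucleolus to the cytoplasm. The 6 groups, of 3 libraries each, were parental OCI-AML2 (AML2WT), its CASP2 knockout clones 1 (AML2C1) and 2 (AML2C12), parental OCI-AML3 (AML3WT), and its CASP2 knockout clones 1 (AML3C9) and 2 (AML3C23). All cells were untreated and had been less than 2 weeks in culture. Each knockout group is 1 clone made by CRISPR-Cas9, and nothing says that the 3 libraries of a group came from separate cultures. The p-values therefore measure the spread between these libraries, which may be technical. With 1 line for each NPM1 state, the state of NPM1 and every other property of the lines cannot be told apart.

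Caspase-2 is an initiator protease that is activated on a platform built with the adaptor PIDD1, and it has been tied to the response to DNA damage, to extra centrosomes and to metabolic stress. Nucleophosmin, the product of NPM1, has been reported to take part in its activation in the nucleolus. Cells with NPM1c+ typically keep HOXA and HOXB genes active, and leukaemic cells of this kind can move toward monocytes or granulocytes when that programme weakens.

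A difference between lines was called only when all 4 pairings of an OCI-AML3 clone with an OCI-AML2 clone passed limma's test at an adjusted p of 0.05 and shared a sign. The pairings are not independent, since all of them use the same parental libraries. Values are TPM, a transcript abundance scaled for length and depth, and all changes are differences of log2(TPM + 1), which understate the change of genes with low values. TPM keeps no read number, so the depth behind each value is unknown. The deposited table lists genes selected for a change between some of these groups, and its values sum to between 170140 and 199403 TPM per library. Identical sets of 18 values were counted once, and a set is named only where the layout of the table settled its symbol. A positive difference is called more positive in OCI-AML3, whether the gene rose there, fell in OCI-AML2 or both. The value after ± is the standard error of the fit. In bulk RNA, fewer cells of a type and less RNA per cell cannot be told apart.

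Of the lists of cell type markers, the general myeloid one had 4 named members (AIF1, TYROBP, FCER1G and ANPEP), whose summed level was 595.77 to 672.73 TPM in parental OCI-AML2, 725.02 to 823.38 in its clone 1 and 463.39 to 544.59 in its clone 2. TYROBP held most of it, with 517.17 to 590.54 TPM in parental OCI-AML2. AIF1 went against the lower sum of clone 2, with 35.15 to 43.41 TPM in parental cells and 68.44 to 82.45 TPM in clone 2. FCER1G went against the higher sum of clone 1, with 38.51 to 43.36 TPM in parental cells and 33.59 to 38.09 TPM in clone 1. In OCI-AML3 the sum of the general myeloid markers was 185.66 to 206.98 TPM in parental cells and 138.49 to 153.55 TPM in the clones. ANPEP went against it there, with 27.02 to 31.94 TPM in parental cells and 57.24 to 70.82 TPM in the clones. No erythroid marker was found in the table. The 2 named T and NK markers, NKG7 and CD3D, summed to 66.69 to 70.42 TPM in parental OCI-AML2 and 119.68 to 195.05 TPM in its clones, and to 12.64 to 20.01 TPM in parental OCI-AML3 and 2.71 to 6.29 TPM in its clones. The B-lineage markers CD79B and PAX5 summed to at most 4.54 TPM in parental OCI-AML2, to between 11.85 and 21.83 TPM in its clones, and to 0.52 to 1.1 TPM in parental OCI-AML3 and 0.08 to 0.2 TPM in its clones. The mast cell tryptases TPSAB1 and TPSB2, which are near-identical copies, were listed at 0 in parental OCI-AML3 and summed to 9.81 to 16.63 TPM in its clones, against 0.5 to 2.78 TPM over the OCI-AML2 libraries. The 3 megakaryocyte markers (ITGA2B, GP1BB and NFE2) summed to 50.47 to 68.83 TPM in parental OCI-AML3 and 129.24 to 175.68 TPM in its clones, and to 53.18 to 73.05 and 73.88 to 99.01 TPM in OCI-AML2. Within this sum ITGA2B fell in OCI-AML3, from 2.57 to 2.98 TPM in parental cells down to 0.19 to 0.69 TPM. The 3 dendritic cell markers (CLEC10A, IL3RA and LAMP5) summed to 97.62 to 105.18 TPM in parental OCI-AML3 and 23.56 to 28.04 TPM in its clones, against 36.29 to 37.66 and 23.23 to 31.29 TPM in OCI-AML2. In OCI-AML3 only LAMP5 fell, from 91.19 to 98.98 TPM down to 9.7 to 12.81 TPM. CLEC10A rose there from 1.43 to 1.74 TPM up to 4.37 to 6.75 TPM, and IL3RA from 4.46 to 5 TPM up to 7.98 to 12.31 TPM. The 3 epithelial and stromal markers (KRT18, COL1A2 and ACTA2) summed to 102.67 to 107.56 TPM in parental OCI-AML3 and 46.31 to 51.88 TPM in its clones, against 3.47 to 4.49 and 4.08 to 12.31 TPM in OCI-AML2. In OCI-AML3 only ACTA2 fell, from 102.41 to 107.34 TPM down to 39.98 to 47.41 TPM. KRT18 rose there from 0.16 to 0.17 TPM up to 1.64 to 3.45 TPM, and COL1A2 from 0.06 to 0.25 TPM up to 1.83 to 3.91 TPM. In OCI-AML2, COL1A2 was listed at or near 0. The part of any of these markers in the results below was not tested.

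CASP2, the targeted gene, differed between the lines. It stood at 35.32, 37.29 and 35.57 TPM in parental OCI-AML2, 3.93, 3.58 and 3 in its clone 1 and 5.03, 3.27 and 5.06 in its clone 2. The OCI-AML3 libraries held 30.11, 28.12 and 28 TPM in parental OCI-AML3, 26.34, 27.05 and 27.83 in its clone 1 and 31.09, 35.39 and 29.82 in its clone 2. The OCI-AML2 clones lay below every parental library, whereas in OCI-AML3 clone 1 lay just below and clone 2 overlapped the parental range and no fall passed. The difference was 2.95 ± 0.14, with pairings of 2.7 to 3.2 and a highest limma adjusted p over the 4 pairings of 4.76e-11. The mRNA of an edited gene need not fall, so the level neither checks nor contradicts the labels of the OCI-AML3 clones, and every direction given for them is that of the clones labelled as knockouts.

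Over the whole table, most tested sets changed differently in the 2 lines. Of 4413 tested sets, 2707 were called (61.3%), 1069 of them more positive in OCI-AML3 (24.2%) and 1638 more positive in OCI-AML2 (37.1%). The difference was at least 1 in size in 1785 called sets, at least 2 in 518 and at least 4 in 59, and the median SE of a called difference was 0.12. Of the 2281 sets with a symbol, 32.9% were called as more positive in OCI-AML3 and 48.2% as more positive in OCI-AML2, and their median difference was -0.64. These 2 shares are the background for the counts of named genes below. They describe a table of selected genes, not the transcriptome. Scaling by medians of ratios moved the median of all sets from -0.23 to -0.06, so differences are best read relative to such a shift.

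The called sets were sorted by pattern. In 559 sets (12.7% of those tested) both clones of each line passed and the lines went in opposite directions, with 191 higher in OCI-AML3 clones and lower in OCI-AML2 clones (4.33%) and 368 the reverse (8.34%). In 647 sets the clones changed in OCI-AML3 and neither clone of OCI-AML2 passed. In 350 sets they changed in OCI-AML2 and neither clone of OCI-AML3 passed. In 234 sets both lines changed in the same direction by unequal amounts. The remaining 917 sets fitted none of these patterns, for example because the clones of a line differed in call or direction. The median size of the difference was 1.71 for opposite changes, 1.14 for OCI-AML3 alone, 1.07 for OCI-AML2 alone and 0.90 for the same direction. In many sets that changed in 1 line alone, the other line hardly held the transcript. Of the 241 sets that rose in OCI-AML2 alone, 184 (76.3%) had a mean under 1 TPM in all 3 OCI-AML3 groups. Of the 376 that fell in OCI-AML3 alone, 244 (64.9%) were under 1 TPM in all 3 OCI-AML2 groups. The remaining shares were 156 of the 271 that rose in OCI-AML3 alone (57.6%) and 48 of the 109 that fell in OCI-AML2 alone (44%).

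**Figure D1:**
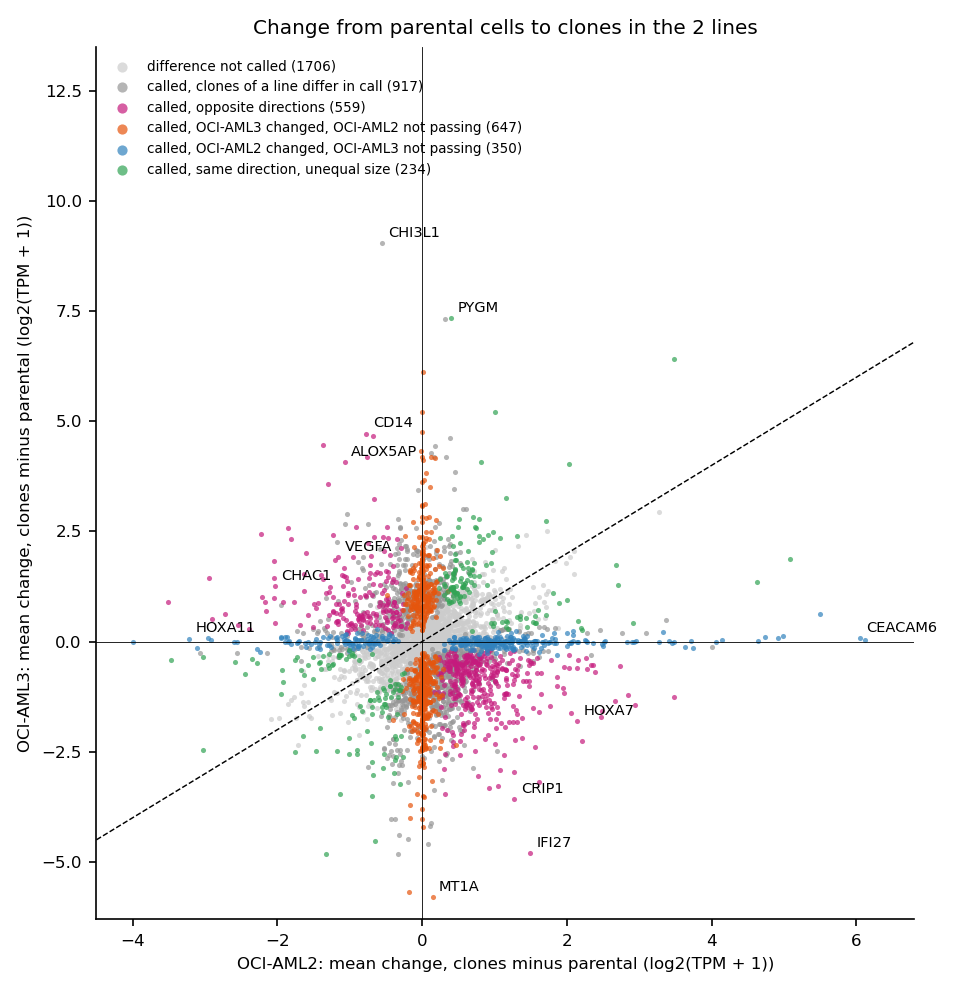
Mean change of both clones against the parental line in OCI-AML2 (x axis) and OCI-AML3 (y axis), each on the log2(TPM + 1) scale, for the 4413 tested sets. Points on the dashed line changed equally in the 2 lines. The 559 sets called as opposite fill the upper left and lower right corners, and CHI3L1 lies highest.

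Most interferon-stimulated genes were more positive in OCI-AML2, and 8 of them went in opposite directions in the 2 lines. These genes are switched on by type I interferon through a complex of transcription factors, and their products block viral RNA and protein. Of 21 tested members, 15 were called as more positive in OCI-AML2 and 2 as more positive in OCI-AML3, with a median difference of -1.71 against -0.64 for all sets with a symbol. In 8 members (IFI27, OAS2, HERC5, IFI44, IFI44L, SAMD9, CMPK2 and MX1) both OCI-AML2 clones rose and both OCI-AML3 clones fell. Among all sets with a symbol, 17.6% were opposite in this sense or its reverse. Parental OCI-AML3 held more of each of these 8 transcripts than parental OCI-AML2.

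Promoters of these genes are shown because their members moved together and because the family shares a known element, the interferon-stimulated response element. Windows of 250 bases before the RefSeq start (GRCh38.p14) were searched on both strands for a pair of its core half-sites, which is GAAA, any 2 bases and GAAA again. Of 27305 windows of this length, 839 (3.07%) held the motif, and so did 11 of the 16 tested members with a window (68.8%). Capitals mark the matches, read 5′ to 3′ on the strand of the gene. A match is a description of letters and not a measured binding site.
IFI27, chr14:94110486-94110735 (plus strand): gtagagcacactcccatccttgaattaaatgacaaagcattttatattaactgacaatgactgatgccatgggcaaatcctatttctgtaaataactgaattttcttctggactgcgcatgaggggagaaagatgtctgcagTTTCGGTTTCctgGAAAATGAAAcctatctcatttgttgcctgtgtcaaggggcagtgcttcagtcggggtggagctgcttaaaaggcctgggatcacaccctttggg
HERC5, chr4:88456869-88457118 (plus strand): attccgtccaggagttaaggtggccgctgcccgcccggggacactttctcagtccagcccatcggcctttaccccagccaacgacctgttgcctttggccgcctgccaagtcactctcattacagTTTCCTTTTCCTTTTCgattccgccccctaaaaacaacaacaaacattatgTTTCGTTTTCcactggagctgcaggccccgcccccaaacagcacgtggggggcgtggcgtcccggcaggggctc
IFI44L, chr1:78620198-78620447 (plus strand): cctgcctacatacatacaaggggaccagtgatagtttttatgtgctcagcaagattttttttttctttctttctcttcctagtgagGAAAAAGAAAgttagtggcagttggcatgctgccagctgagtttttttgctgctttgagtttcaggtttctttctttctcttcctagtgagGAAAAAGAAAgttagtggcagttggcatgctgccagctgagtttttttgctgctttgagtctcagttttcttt
IFIT1, chr10:89392373-89392622 (plus strand): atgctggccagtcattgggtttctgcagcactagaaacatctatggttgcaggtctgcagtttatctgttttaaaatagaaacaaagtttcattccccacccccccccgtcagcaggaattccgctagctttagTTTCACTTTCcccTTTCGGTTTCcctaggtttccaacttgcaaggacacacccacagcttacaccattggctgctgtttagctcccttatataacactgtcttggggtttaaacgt
IFI27 held 2 matches on opposite strands, HERC5 held 3, of which 2 overlap, and IFI44L and IFIT1 held 2 each. IFIT1, which went the other way from the first 3, thus carries the same letters. The windows of CMPK2, MX1, RSAD2, IFI30 and GBP4 held none.

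IFI27, a mitochondrial interferon-induced protein, had the most negative difference among the named opposite genes. It stood at 0, 0.45 and 0.2 TPM in parental OCI-AML2, 0.97, 1.59 and 1.89 in its clone 1 and 4.63, 2.45 and 4.26 in its clone 2. Its OCI-AML3 values were 1410.72, 1595.75 and 1567.22 TPM in parental OCI-AML3, 98.13, 100.42 and 87.44 in its clone 1 and 28.39, 33.26 and 27.89 in its clone 2. All 6 OCI-AML2 clone libraries lay above the parental ones and all 6 OCI-AML3 clone libraries lay below theirs, with no overlap. The difference was -6.3 ± 0.21 (pairings -7.59 to -5.01, highest limma adjusted p 3.70e-12). OAS2, which makes the messenger that activates RNase L, showed the same order at higher levels in OCI-AML2. Its libraries read 2.27, 1.92 and 1.7 TPM in parental OCI-AML2, 9.88, 11.12 and 9.99 in its clone 1 and 6.62, 5.57 and 6.4 in its clone 2. In the other line they read 223.88, 229.4 and 237.47 TPM in parental OCI-AML3, 101.44, 96.38 and 97.19 in its clone 1 and 56.87, 57.3 and 59.16 in its clone 2, and again no clone library overlapped its parental range. The difference was -3.21 ± 0.09 (pairings -3.91 to -2.5, highest limma adjusted p 6.30e-13).

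HERC5, the ligase that attaches ISG15 to proteins, had the closest parental levels of the 8 in the 2 lines. Its values were 6.73, 7.19 and 8.05 TPM in parental OCI-AML2, 12.18, 17.4 and 14.22 in its clone 1 and 23.32, 21.61 and 18.17 in its clone 2. They were 13.08, 12.35 and 12.01 TPM in parental OCI-AML3, 3.26, 4.04 and 2.96 in its clone 1 and 1.78, 1.89 and 1.64 in its clone 2. The OCI-AML2 clones rose above all parental libraries and the OCI-AML3 clones fell below all of theirs, and the difference was -3.1 ± 0.15 (highest limma adjusted p 3.00e-10). SAMD9, an antiviral factor that restricts translation, went from 5.94 to 7.96 (clone 1) and 10.7 TPM (clone 2) in OCI-AML2 and from 22.5 to 7.14 (clone 1) and 4.25 TPM (clone 2) in OCI-AML3 (group means, difference -2.42 ± 0.10). IFI44 (difference -3.04 ± 0.12), IFI44L (-2.58 ± 0.11), CMPK2 (-2.16 ± 0.13) and MX1 (-1.71 ± 0.11), the dynamin-like GTPase that blocks influenza virus, completed the opposite members. In the OCI-AML3 fall, clone 2 went further than clone 1 in each of the 8, a difference between clones that was not tested here.

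The other members went different ways. IFIT1 and IFIT2, which bind foreign RNA ends, rose in both lines and more in OCI-AML3 (differences 1.14 ± 0.11 and 0.89 ± 0.13), from close to 0 TPM in parental OCI-AML2. With a pseudocount of 0.1 TPM neither was called (differences of 0.25 and 0.0026). IFIT3 (0.07 ± 0.14, 95% interval -0.24 to 0.37), GBP4 (0.02 ± 0.11), OASL (-0.8 ± 0.16) and IFI6 (-1.23 ± 0.12) were not called. SIGLEC1, the sialic acid receptor CD169 of interferon-exposed macrophages, fell in OCI-AML3 from 43.3 to 11.2 (clone 1) and 6.26 TPM (clone 2) and was near 0 in all OCI-AML2 groups. GBP2 and IFI30 rose in OCI-AML2 alone (-1.09 ± 0.14 and -1.19 ± 0.09).

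Genes of the integrated stress and unfolded protein response went the opposite way. They are induced when the kinases that sense starvation, haem lack, viral RNA or misfolded protein phosphorylate eIF2 alpha, after which ATF4 and CHOP are made and amino acid supply genes are transcribed. Of 10 tested members, 9 were called as more positive in OCI-AML3 and 0 in OCI-AML2, with a median difference of 2.33. HSPA5, the endoplasmic reticulum chaperone BiP, was the tenth and was not called (0.37 ± 0.09, 95% interval 0.18 to 0.55). CHAC1, DDIT4, CTH, INHBE and HERPUD1 rose in both OCI-AML3 clones and fell in both OCI-AML2 clones.

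CHAC1, an enzyme that breaks down glutathione and a direct ATF4 target, stood at 92.34, 82.49 and 92 TPM in parental OCI-AML2, 52.16, 53.27 and 43.15 in its clone 1 and 8.03, 7.86 and 9.88 in its clone 2. Among OCI-AML3 libraries it reached 137.93, 122.51 and 121.98 TPM in parental OCI-AML3, 279.99, 291.33 and 287.81 in its clone 1 and 335.26, 349.08 and 309.91 in its clone 2. The clone libraries lay below all parental ones in OCI-AML2 and above all parental ones in OCI-AML3. OCI-AML2 clone 2 lay far below clone 1, so the pairings ran from 2.00 to 4.61 around a difference of 3.3 ± 0.11 (highest limma adjusted p 1.79e-10). DDIT4, also called REDD1, restrains mTORC1 under stress. It stood at 178.7, 161.69 and 193.4 TPM in parental OCI-AML2, 93.45, 100.62 and 94.46 in its clone 1 and 23.33, 20.49 and 21.38 in its clone 2. It stood at 221.69, 266.21 and 258.19 TPM in parental OCI-AML3, 487.37, 473.85 and 535.72 in its clone 1 and 425.46, 445.03 and 436.47 in its clone 2, and its difference was 2.83 ± 0.10 (pairings 1.69 to 3.98). Here too no clone library overlapped its own parental range, and OCI-AML2 clone 2 lay lowest.

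CTH, the transsulfuration enzyme that makes cysteine, differed mainly through OCI-AML2, where it went from 54 to 17.1 (clone 1) and 3.98 TPM (clone 2), against 44.2 to 55.8 (clone 1) and 59.4 TPM (clone 2) in OCI-AML3 (difference 2.91 ± 0.12). INHBE, an activin subunit gene, went from 9.37 to 6.49 (clone 1) and 0.493 TPM (clone 2) and from 0.81 to 4.82 (clone 1) and 3.76 TPM (clone 2) (3.17 ± 0.12). HERPUD1, which serves the disposal of misfolded proteins, had nearly equal pairings (1.43 to 1.5) around 1.46 ± 0.09. NUPR1, a stress-induced chromatin protein, had the largest difference of the list (3.73 ± 0.17). It rose in OCI-AML3 from 1.16 to 12.9 (clone 1) and 12.6 TPM (clone 2) and passed as lower only in clone 2 of OCI-AML2. DDIT3, the gene of CHOP, rose in OCI-AML3 (1.46 and 1.16 in the 2 clones) while the OCI-AML2 clones changed by 0.20 and -1.25, both passing in different directions. SLC7A5, the leucine transporter, fell in both OCI-AML2 clones, with changes of -1.52 and -1.60, against -0.24 and -0.07 in the OCI-AML3 clones (1.4 ± 0.10). SLC7A11, the cystine importer, rose in both lines (0.84 ± 0.11), and its call was lost without OCI-AML2 clone 2 replicate 2 (0.81) or 3 (0.82) or OCI-AML3 parental replicate 1 (0.78).

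The composite element of ATF4 and C/EBP was searched in the same windows as TGATGNAA on both strands. It was held by 870 of 27305 windows (3.19%) and by 2 of the 7 tested members with a window, CHAC1 and HERPUD1, which are shown because both changed in opposite directions in the 2 lines.
CHAC1, chr15:40953221-40953470 (plus strand): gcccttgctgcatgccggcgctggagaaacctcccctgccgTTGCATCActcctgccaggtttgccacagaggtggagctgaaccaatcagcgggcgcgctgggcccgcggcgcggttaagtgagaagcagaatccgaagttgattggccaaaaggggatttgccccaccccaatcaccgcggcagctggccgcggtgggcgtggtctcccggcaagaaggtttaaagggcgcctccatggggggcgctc
HERPUD1, chr16:56931892-56932141 (plus strand): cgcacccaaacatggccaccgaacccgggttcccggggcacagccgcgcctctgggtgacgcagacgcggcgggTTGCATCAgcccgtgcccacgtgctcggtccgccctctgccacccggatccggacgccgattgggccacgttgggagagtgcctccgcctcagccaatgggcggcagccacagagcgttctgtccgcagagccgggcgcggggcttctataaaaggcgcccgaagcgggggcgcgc
Capitals mark TTGCATCA in each, which is the motif read on the other strand.

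**Figure D2:**
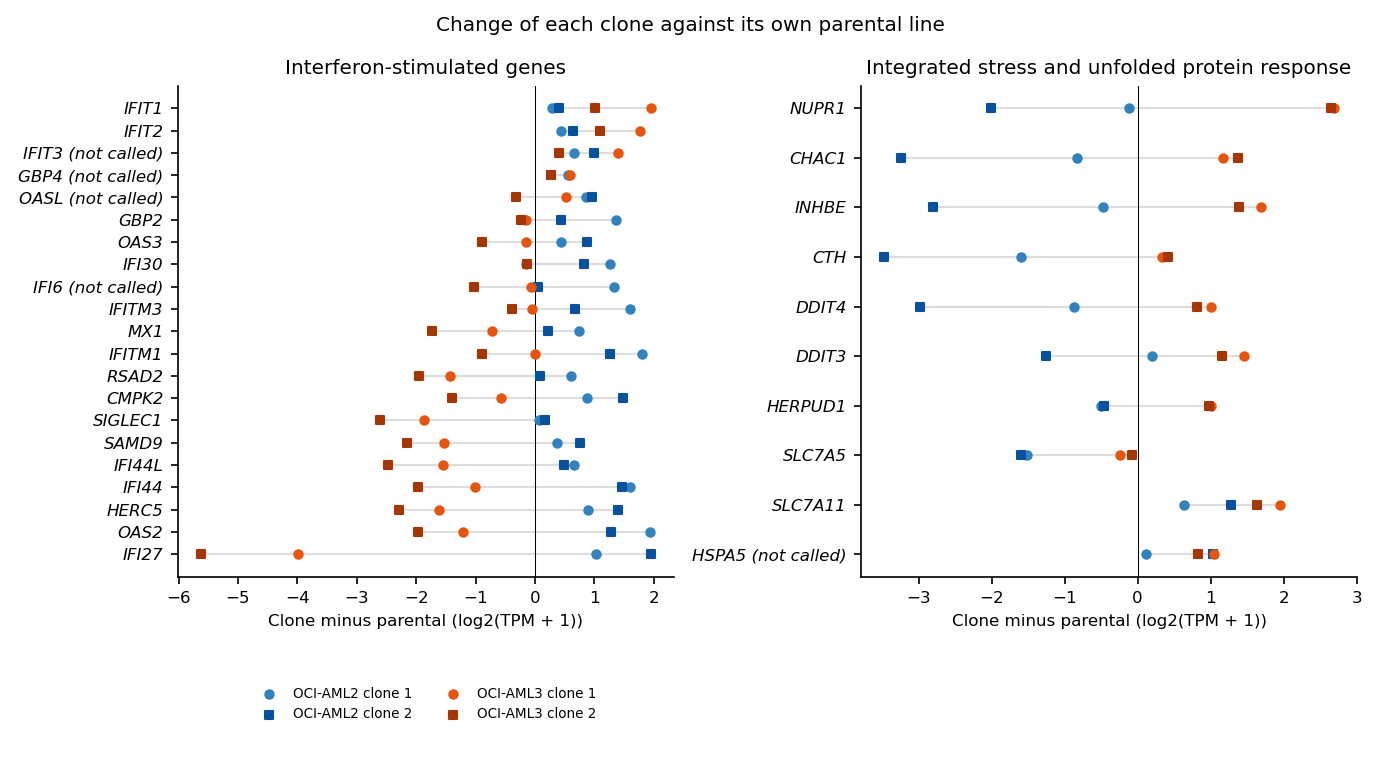
Change of each clone against its own parental line (x axis, log2(TPM + 1)) for the 21 interferon-stimulated genes and the 10 stress-response genes tested, ordered by the difference between lines. Blue marks are OCI-AML2 clones and orange marks OCI-AML3 clones. For IFI27, OAS2 and HERC5 the orange marks lie left of 0 and the blue marks right of it, and for CHAC1, DDIT4 and HERPUD1 the order is reversed.

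HOX genes, the transcription factors that keep NPM1-mutated blasts immature, also split by line. All 11 tested members of the HOX and MEIS list were called, 10 as more positive in OCI-AML2 and 1, HOXA11, as more positive in OCI-AML3, with a median difference of -1.33. HOXA7, HOXA5, HOXA3 and the HOX cofactor PBX3 rose in OCI-AML2 clones and fell in OCI-AML3 clones. HOXA7 stood at 12.31, 13.62 and 14.71 TPM in parental OCI-AML2, 58.24, 56.46 and 41.75 in its clone 1 and 68.44, 78.89 and 84.85 in its clone 2. For OCI-AML3 the values were 2.38, 2.82 and 3.25 TPM in parental OCI-AML3, 0, 0.37 and 0.06 in its clone 1 and 0.06, 0 and 0.06 in its clone 2. Every clone library lay outside its own parental range, upward in OCI-AML2 and downward to nearly 0 in OCI-AML3. The difference was -3.95 ± 0.17 (pairings -4.3 to -3.6, highest limma adjusted p 1.35e-11). HOXA5 went from 17.3 to 33.8 (clone 1) and 45.2 TPM (clone 2) and from 1.82 to 0.2 (clone 1) and 0.1 TPM (clone 2) in the 2 lines (-2.41 ± 0.13), and HOXA3 from 2 to 5.51 (clone 1) and 5.26 TPM (clone 2) and 0.46 to 0.0567 (clone 1) and 0.113 TPM (clone 2) (-1.53 ± 0.12).

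HOXA9, the member best known for blocking myeloid maturation, rose in both lines and more in OCI-AML2, from 59 to 133 (clone 1) and 166 TPM (clone 2) and from 82.5 to 118 (clone 1) and 124 TPM (clone 2) (-0.77 ± 0.11). HOXB4 (-1.3 ± 0.10), HOXB7 (-1.1 ± 0.11) and HOXB9 (-1.33 ± 0.11) fell in OCI-AML3 and were listed at or near 0 in OCI-AML2, where no fall could be seen. HOXB9, for example, went from 61.9 to 20.5 (clone 1) and 28.5 TPM (clone 2) in OCI-AML3. HOXA4 rose in both OCI-AML2 clones while only clone 2 of OCI-AML3 passed as lower (-1.31 ± 0.16).

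HOXA11 had the only positive difference of the 11 members. It stood at 15.94, 17.84 and 17.4 TPM in parental OCI-AML2, 0.79, 0.86 and 1.06 in its clone 1 and 0.84, 1.05 and 1.09 in its clone 2. OCI-AML3 libraries gave 31.15, 34.09 and 31.21 TPM in parental OCI-AML3, 32.12, 33.97 and 33.72 in its clone 1 and 33.15, 36.21 and 33.55 in its clone 2. The OCI-AML2 clones lost nearly all of it, whereas the OCI-AML3 clones overlapped their parental range, and the difference was 3.28 ± 0.09 (pairings 3.23 to 3.34). Among stem and progenitor genes, 3 of 6 were called as more positive in OCI-AML2 and 2 in OCI-AML3 (median -0.37), near the background shares. BMI1, the polycomb gene of self-renewal, rose from 32.3 to 80.8 (clone 1) and 121 TPM (clone 2) in OCI-AML2 and fell from 17.5 to 11.1 (clone 1) and 9.26 TPM (clone 2) in OCI-AML3 (-2.31 ± 0.19), where clone 1 overlapped the parental libraries. CDK6, the cyclin D kinase that also restrains myeloid maturation, rose in OCI-AML2 from 36 to 50.5 (clone 1) and 62 TPM (clone 2) and fell in OCI-AML3 from 89.3 to 29.2 (clone 1) and 33.1 TPM (clone 2) (-2.11 ± 0.10). LIN28B, a repressor of let-7 miRNAs, rose in OCI-AML2 from 5.56 to 13.7 (clone 1) and 25.7 TPM (clone 2) and was listed close to 0 in OCI-AML3 (-1.58 ± 0.11). LMO2, a partner of TAL1, rose in both lines and more in OCI-AML3 (1.16 ± 0.12).

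Eicosanoid genes were mostly more positive in OCI-AML3. These lipid mediators are made from arachidonic acid, by 5-lipoxygenase with its activating protein toward leukotrienes and by cyclooxygenases toward prostaglandins and thromboxane. Of 11 tested members, 9 were called as more positive in OCI-AML3 and 2 in OCI-AML2, with a median difference of 1.70. ALOX5AP, the 5-lipoxygenase activating protein, stood at 804.92, 823.77 and 733.35 TPM in parental OCI-AML2, 242.63, 235.22 and 181.02 in its clone 1 and 600.37, 621.98 and 714.25 in its clone 2. The other line had 29.77, 23.47 and 28.64 TPM in parental OCI-AML3, 387.24, 399.29 and 443.82 in its clone 1 and 548.66, 606.88 and 503.33 in its clone 2. The clones lay below the parental libraries in OCI-AML2, by little in clone 2, and far above them in OCI-AML3, so the pairings spread from 4.15 to 6.14 around 5.15 ± 0.14 (highest limma adjusted p 1.70e-13).

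ALOX5 itself rose in OCI-AML3 from 3.47 to 18.2 (clone 1) and 20.7 TPM (clone 2) and was near 0 in every OCI-AML2 group (2.2 ± 0.14). Of the receptors, PTGER4, a prostaglandin E2 receptor, rose in OCI-AML3 but fell in OCI-AML2 (2.13 ± 0.12), as did TBXAS1, thromboxane synthase, at under 1 TPM in OCI-AML3 (1.54 ± 0.16). PTGER3 rose in OCI-AML3 alone (1.7 ± 0.09). AKR1C3, which makes prostaglandin F, rose in both lines, from 1.84 to 29.4 (clone 1) and 31.8 TPM (clone 2) and from 0.55 to 132 (clone 1) and 129.5 TPM (clone 2) (2.93 ± 0.14). The 2 negative members were PTGS1, the constitutive cyclooxygenase, which rose in OCI-AML2 and fell in OCI-AML3 (-2.21 ± 0.11), and MGLL, a lipase of endocannabinoids, which rose in OCI-AML2 alone (-2.22 ± 0.07). PTGS2, the inducible cyclooxygenase, rose in both lines and more in OCI-AML3 (1.09 ± 0.13), so the 2 cyclooxygenases had differences of opposite sign.

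**Figure D3:**
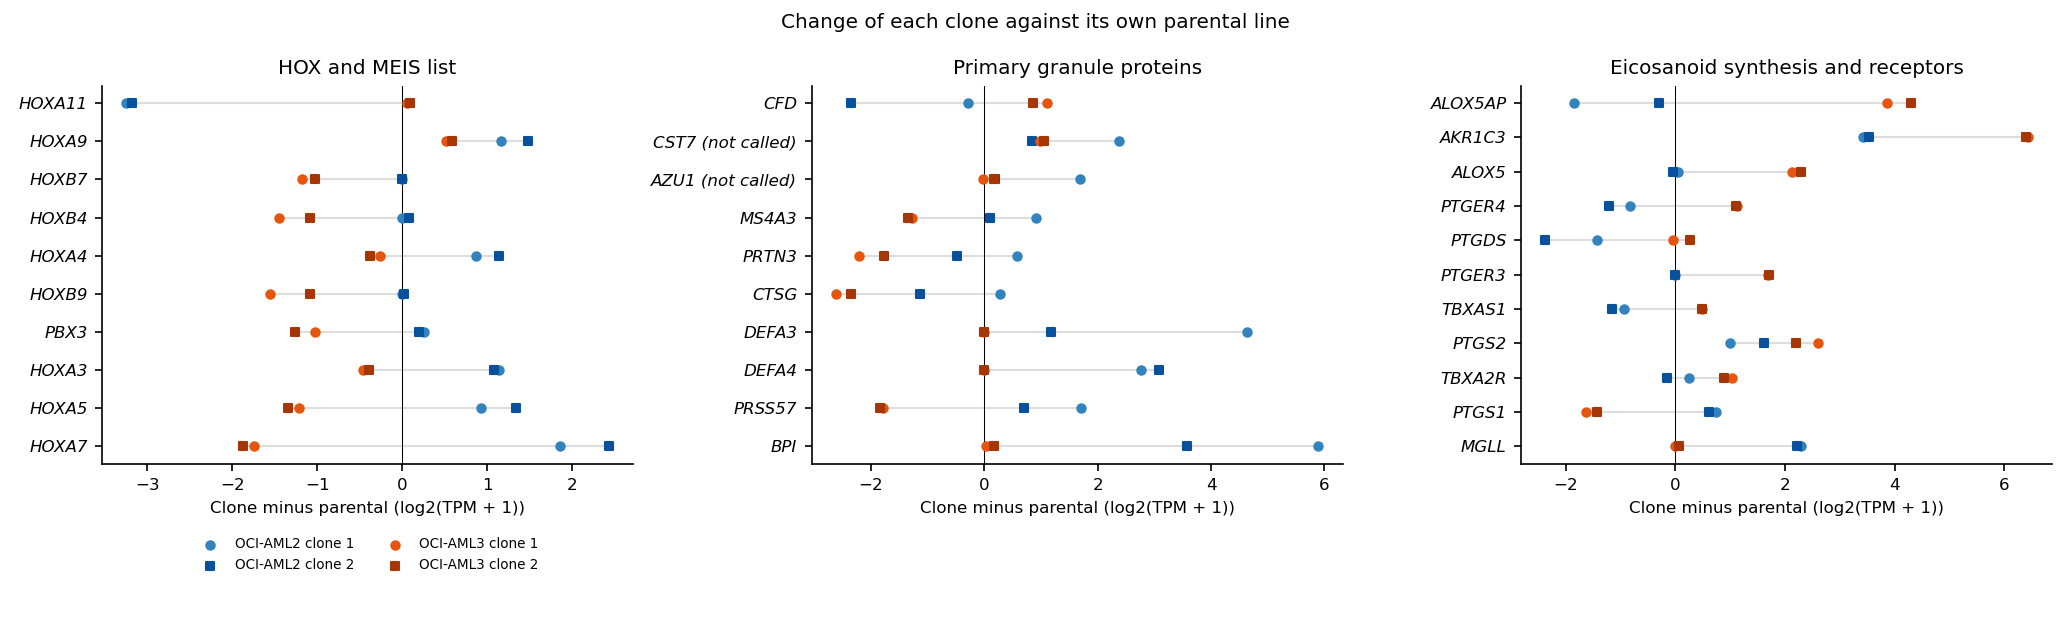
Change of each clone against its own parental line (x axis, log2(TPM + 1)) for tested members of the HOX and MEIS, primary granule and eicosanoid lists, ordered by the difference between lines, with OCI-AML2 clones in blue and OCI-AML3 clones in orange. HOXA7 spreads from below -1 to above 1, and HOXA11 stands alone with its OCI-AML2 clones at the far left.

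Sterol and fatty acid genes were more positive in OCI-AML2 in every member tested. These genes answer to the SREBP factors, except ABCA1 and ABCG1, cholesterol exporters under LXR control. All 7 tested members were called as more positive in OCI-AML2 (median -1.26). FADS2, the delta-6 fatty acid desaturase, stood at 241.55, 233.6 and 235.42 TPM in parental OCI-AML2, 325.91, 307.24 and 247.7 in its clone 1 and 292.4, 283.16 and 327.62 in its clone 2. The OCI-AML3 libraries held 230.11, 196.77 and 190.34 TPM in parental OCI-AML3, 54.29, 57.24 and 57.98 in its clone 1 and 68.38, 74.85 and 59.66 in its clone 2. Its OCI-AML3 clones lay far below the parental libraries and its OCI-AML2 clones somewhat above theirs, without overlap, and the difference was -2.04 ± 0.12 (highest limma adjusted p 1.57e-09). FDPS, farnesyl diphosphate synthase, rose in OCI-AML2 and fell in OCI-AML3 (-1.2 ± 0.09). FADS1 fell in OCI-AML3 alone (-1.11 ± 0.09), and DHCR7, the last enzyme of cholesterol synthesis, fell in both OCI-AML3 clones and passed as higher in clone 1 of OCI-AML2 (-1.37 ± 0.13). INSIG1, which holds SREBP back, fell in both lines (-0.57 ± 0.09), and its call was lost on scaling by medians of ratios (-0.34).

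Monocyte and macrophage surface receptors were called in both directions, with 10 of 24 called as more positive in OCI-AML3 and 9 in OCI-AML2 (median 0.26), not far from the background shares. CD14, the lipopolysaccharide co-receptor of monocytes, had the largest difference of the list. It stood at 7.39, 6.44 and 5.5 TPM in parental OCI-AML2, 3.57, 3.7 and 3.62 in its clone 1 and 2.79, 3.01 and 3.47 in its clone 2. Its OCI-AML3 values were 0.59, 1.32 and 0.53 TPM in parental OCI-AML3, 43.18, 40.65 and 42.45 in its clone 1 and 50.76, 52.63 and 47.11 in its clone 2. No clone library overlapped its parental range, and the difference was 5.49 ± 0.16 with pairings of 5.27 to 5.7 (highest limma adjusted p 3.43e-14). TLR2, its partner for bacterial lipoproteins, rose from 68.7 to 148 (clone 1) and 129.5 TPM (clone 2) in OCI-AML3 and fell from 105 to 47 (clone 1) and 41.9 TPM (clone 2) in OCI-AML2 (2.23 ± 0.10). CD86, a co-stimulatory ligand (3.9 ± 0.10), C5AR1, the receptor of complement C5a (2.5 ± 0.17), and CCR1 (1.03 ± 0.07), a chemokine receptor, changed likewise.

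CD36, a scavenger receptor of lipids, and TREM2, a lipid receptor of macrophages, rose in OCI-AML3 from 1.12 to 40.4 (clone 1) and 34.5 TPM (clone 2) and from 7.12 to 63.1 (clone 1) and 65.3 TPM (clone 2), and passed as higher only in clone 2 of OCI-AML2 (3.86 ± 0.14 and 2.45 ± 0.17). With a pseudocount of 0.1 TPM the TREM2 call was lost. OSCAR, an activating receptor for collagen, fell in OCI-AML2 from 53 to 9.49 (clone 1) and 3.64 TPM (clone 2) and did not pass in OCI-AML3 (3.05 ± 0.13). In the other direction, ITGAM, the integrin alpha chain CD11b, rose in OCI-AML2 and fell in OCI-AML3 at levels under 2 TPM (-1.1 ± 0.08). TREM1 (-1.59 ± 0.16) and LILRB4 (-1.53 ± 0.14) fell in both lines and more in OCI-AML3. CD68, a lysosomal protein of macrophages, fell in both OCI-AML3 clones (-1.86 ± 0.14).

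Secreted and lysosomal proteins of macrophages were more positive in OCI-AML3 in 8 of 12 members and in OCI-AML2 in 2 (median 1.18). CHI3L1, a secreted chitinase-like glycoprotein, had the largest difference among the list members. It stood at 9.54, 9.56 and 10.19 TPM in parental OCI-AML2, 8.82, 7.82 and 7.21 in its clone 1 and 3.18, 5.75 and 6.52 in its clone 2. Among OCI-AML3 libraries it reached 9.52, 8.21 and 7.13 TPM in parental OCI-AML3, 4581.99, 4782.2 and 4870.44 in its clone 1 and 5001.36, 5248.57 and 4976.97 in its clone 2. Both OCI-AML3 clones stood far above every other library, and the OCI-AML2 clones lay below their parental libraries, though the fall passed in clone 2 alone. The difference was 9.61 ± 0.18 (pairings 9.27 to 9.95, highest limma adjusted p 1.97e-16). MMP14, a membrane collagenase (2.39 ± 0.08), CTSD, the lysosomal cathepsin D (0.85 ± 0.09), and APOC2 (2.57 ± 0.21) were further positive members. NPC2, which carries cholesterol out of lysosomes, fell in both OCI-AML3 clones and passed as higher in clone 1 and lower in clone 2 of OCI-AML2 (-1.45 ± 0.11), and GPNMB, at group means under 2 TPM, rose in OCI-AML2 alone (-0.89 ± 0.11). The GPNMB call was lost when any of 5 libraries was left out, which were OCI-AML2 parental replicate 1 (-0.83), OCI-AML2 clone 2 replicate 3 (-0.84), OCI-AML3 parental replicate 1 (-0.87) and OCI-AML3 clone 2 replicates 1 (-0.88) and 3 (-0.88). MMP9, the gelatinase, rose in both lines and was not called, with a difference of -0.01 ± 0.14 (95% interval -0.3 to 0.28). With a pseudocount of 0.1 TPM it was called at -2.14.

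NADPH oxidase genes, which make the superoxide burst of phagocytes, were more positive in OCI-AML3 in 3 of 4 members (median 2.03). CYBB, the catalytic subunit gp91phox, rose in both lines. It stood at 34.12, 39.21 and 36.01 TPM in parental OCI-AML2, 53.4, 58.48 and 49.7 in its clone 1 and 106.95, 96.38 and 101.43 in its clone 2. For OCI-AML3 the values were 0.34, 0.26 and 0.23 TPM in parental OCI-AML3, 47.13, 45.22 and 44.11 in its clone 1 and 47.85, 46.07 and 46.28 in its clone 2. Every clone library lay above its own parental ones, and the OCI-AML3 clones went from close to 0 to between the means of parental OCI-AML2 and its clones. The difference was 4.2 ± 0.09 (highest limma adjusted p 1.64e-15). NCF1, the p47phox subunit, rose likewise (2.11 ± 0.14), although near-identical pseudogenes could share its reads. HVCN1, the proton channel that balances the burst, rose in OCI-AML3 (1.96 ± 0.08).

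**Figure D4:**
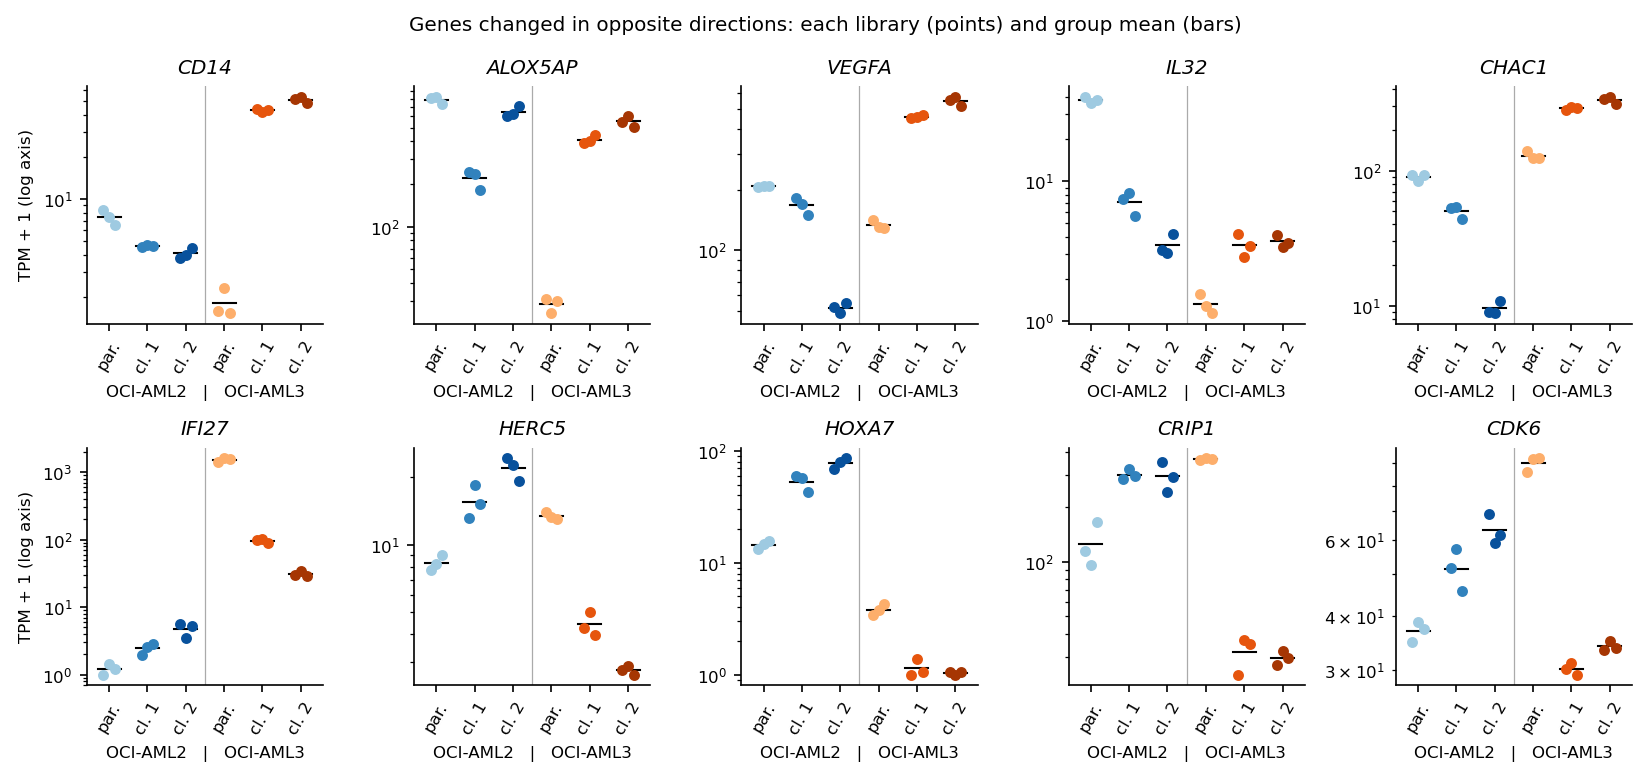
TPM + 1 on a log axis for 10 genes that changed in opposite directions in the 2 lines. Points are the 3 libraries of each group and bars the group means. In the upper row both OCI-AML2 clones lie below and both OCI-AML3 clones above their parental cells, and in the lower row the order is reversed.

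Granulocyte genes were called as more positive in OCI-AML2 more often than in OCI-AML3. Of 15 tested genes of neutrophil maturation and secondary granules, 9 were called as more positive in OCI-AML2 and 5 were not called. Only 1, the membrane protease gene MMP25, was called as more positive in OCI-AML3 (1.9 ± 0.14), and the median was -1.01. The first count was not far from the background share of 48.2%, and the last lay below that of 32.9%. CEACAM6, a granulocyte adhesion molecule, stood at 1.01, 1 and 1.41 TPM in parental OCI-AML2, 127.15, 121.62 and 102.07 in its clone 1 and 160.12, 177.85 and 168.56 in its clone 2. OCI-AML3 libraries gave 0, 0 and 0 TPM in parental OCI-AML3, 0.05, 0.1 and 0 in its clone 1 and 0, 0.21 and 0 in its clone 2. Every OCI-AML2 clone library was far above the parental range and every OCI-AML3 library stayed at or near 0, with a difference of -5.97 ± 0.12 (pairings -6.25 to -5.69, highest limma adjusted p 6.88e-16). The calprotectin genes S100A8 (-4.87 ± 0.37) and S100A9 (-3.28 ± 0.22) and their relative S100A12 (-4.85 ± 0.27) followed. S100A9 rose in both lines, from 79.3 to 2539 (clone 1) and 1552 TPM (clone 2) and from 2.05 to 5.99 (clone 1) and 7.27 TPM (clone 2), so it differed in size and not in direction. ARG1, the granule arginase (-2.83 ± 0.12), and MMP8, the neutrophil collagenase (-2.58 ± 0.09), rose in both OCI-AML2 clones.

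Primary granule proteins, the proteases and defensins that promyelocytes store, had 7 of 10 members more positive in OCI-AML2 and 1 in OCI-AML3, with the most negative median of the 22 gene lists (-2.05). The negative differences came in 2 ways. BPI, which kills Gram-negative bacteria (-4.63 ± 0.15), and the defensins DEFA4 (-2.93 ± 0.21) and DEFA3 (-2.9 ± 0.36) rose in OCI-AML2 alone and were at or near 0 in OCI-AML3. PRTN3, CTSG and MS4A3 instead fell in both OCI-AML3 clones, PRTN3, proteinase 3, from 7481 to 1611 (clone 1) and 2193 TPM (clone 2) (-2.04 ± 0.15) and CTSG, cathepsin G, from 5159 to 839.9 (clone 1) and 1010.2 TPM (clone 2) (-2.06 ± 0.08). In OCI-AML2 these 2 proteases passed as higher in clone 1 and as lower in clone 2. PRSS57, a serine protease of the same granules, was opposite (-3.02 ± 0.19). DEFA3 shares nearly all its sequence with DEFA1, so its values are uncertain, and its call was lost without OCI-AML2 parental replicate 1 (-2.67) or clone 2 replicate 1 (-2.72). CFD, complement factor D, was the positive member (2.31 ± 0.20). AZU1 (-0.87 ± 0.15) and CST7 (-0.59 ± 0.15) were not called.

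MHC class II and antigen presentation genes were called in both directions. Of 11 tested members, 6 were called as more positive in OCI-AML2 and 4 in OCI-AML3 (median -1.05), not far from the background shares. With a minimum of 5 TPM the first count was 2. HLA-DPA1 (-3.88 ± 0.16), HLA-DRB1 (-3.7 ± 0.14), HLA-DRB5 (-1.67 ± 0.20), HLA-DQB1 (-1.34 ± 0.10) and CIITA, the master regulator of class II (-1.05 ± 0.08), rose in OCI-AML2 alone and were at or near 0 in every OCI-AML3 group. HLA-DRB1, for example, went from 1.8 to 56.4 (clone 1) and 22.2 TPM (clone 2) in OCI-AML2. The DRB genes resemble each other closely, and reads could be split between them. HLA-DMA, which loads peptides on class II, was opposite (-2.58 ± 0.22). Positive members included the peptide transporter TAP1 (1.24 ± 0.08), CD1D, which presents lipids (1.76 ± 0.15), and HLA-DOB (1.15 ± 0.21). TAP1 rose in both OCI-AML3 clones, whereas in OCI-AML2 it passed as higher in clone 1 and as lower in clone 2.

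Cytokine and chemokine genes were called as more positive in OCI-AML3 in 8 of 18 members and in OCI-AML2 in 6 (median 0.44). Over all sets with a symbol these shares were 32.9% and 48.2%. VEGFA, the main growth factor of blood vessels, stood at 204.48, 207.69 and 206.73 TPM in parental OCI-AML2, 181.03, 168.63 and 148.34 in its clone 1 and 51.23, 47.79 and 54.03 in its clone 2. The other line had 140.7, 129.64 and 127.66 TPM in parental OCI-AML3, 451.64, 459.28 and 467.38 in its clone 1 and 552.84, 575.5 and 517.24 in its clone 2. The OCI-AML3 clones exceeded all parental libraries, the OCI-AML2 clones lay below theirs and clone 2 lowest, and the difference was 3.07 ± 0.09 (pairings 2.1 to 4.04, highest limma adjusted p 4.11e-12). IL32, a proinflammatory cytokine, fell in OCI-AML2 from 37.1 to 6.13 (clone 1) and 2.49 TPM (clone 2) and rose in OCI-AML3 from 0.327 to 2.5 (clone 1) and 2.71 TPM (clone 2) (4.39 ± 0.20). TNFSF13B, the B cell factor BAFF (2.08 ± 0.15), CSF2RA, the alpha chain of the GM-CSF receptor (1.18 ± 0.16), and the death receptor TNFRSF21 (1.41 ± 0.08) were opposite in the same sense. CSF2RB, the beta chain that CSF2RA needs to signal, fell in both lines and more in OCI-AML3 (-2.27 ± 0.09), so the 2 chains of the receptor had differences of opposite sign. CCL2, which attracts monocytes, rose in both lines and more in OCI-AML2 (-3.2 ± 0.18). IL2RG, the common gamma chain, rose in OCI-AML2 from 9.53 to 130.2 (clone 1) and 90.7 TPM (clone 2) (-2.88 ± 0.27). CCL5 was called at 0.94 ± 0.12, a call lost without OCI-AML2 parental replicate 3 (0.91), OCI-AML2 clone 1 replicate 3 (0.86) or OCI-AML3 parental replicate 2 (0.89).

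Adhesion receptors had 4 of 11 members more positive in OCI-AML3 and 5 in OCI-AML2 (median 0.22), near the background shares of 32.9% and 48.2%. ITGB2, the common beta chain of leukocyte integrins, rose in OCI-AML3 from 279.6 to 724 (clone 1) and 647 TPM (clone 2) and fell in OCI-AML2 from 197 to 147 (clone 1) and 116 TPM (clone 2) (1.87 ± 0.06). ITGAL, which pairs with it (1.73 ± 0.09), and CXCR4, the receptor that holds blasts in marrow (1.7 ± 0.10), rose in OCI-AML3 alone. ICAM2, a ligand of that integrin (-2.8 ± 0.17), and ITGB7, a gut-homing chain (-2.63 ± 0.17), were opposite with the reverse sign. CD44, the hyaluronan receptor, fell in OCI-AML3 alone from 153 to 32 (clone 1) and 43.7 TPM (clone 2) (-2.02 ± 0.11). SELPLG, the ligand of P-selectin, fell in both OCI-AML3 clones and in clone 2 of OCI-AML2 (-1.89 ± 0.12).

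Targets of p53 were called in both directions, not far from the background shares. Of these, 7 of 16 were called as more positive in OCI-AML3 and 8 in OCI-AML2 (median -0.36). With scaling by medians of ratios the second count was 5. GDF15, a stress cytokine, fell in OCI-AML2 at low levels, from 1.74 to 0.49 (clone 1) and 0.427 TPM (clone 2), and rose in OCI-AML3 from 7.98 to 53.1 (clone 1) and 54.2 TPM (clone 2) (3.52 ± 0.20). EDA2R, a TNF receptor family member, went the reverse way, from 0.197 to 2 (clone 1) and 1.96 TPM (clone 2) and from 8.19 to 1.57 (clone 1) and 1.65 TPM (clone 2) (-3.15 ± 0.18). CMBL, a hydrolase (2.6 ± 0.14), was opposite with a positive sign and PERP, a junction protein (-1.61 ± 0.17), with a negative one. CDKN1A, the inhibitor p21, rose in both OCI-AML3 clones from 75.6 to 288 (clone 1) and 344 TPM (clone 2) and passed as lower in clone 1 and higher in clone 2 of OCI-AML2 (1.75 ± 0.15). PHLDA3 (-1.42 ± 0.11), DDB2 (-1.08 ± 0.11) and FDXR (-1.12 ± 0.14) rose in both lines and more in OCI-AML2. The last 2 were lost on scaling by medians of ratios (-0.85 and -0.91), and FDXR also without OCI-AML2 parental replicate 2 (-1.01), OCI-AML2 clone 1 replicate 3 (-1.09), OCI-AML3 parental replicate 3 (-1.07) or OCI-AML3 clone 1 replicate 2 (-1.08). All 3 tested apoptosis regulators were called as more positive in OCI-AML3 (median 2.47). CASP2, the edited gene itself, is among them, so beyond it the count rests on BMF and BCL2A1 alone. BMF, a BH3-only protein released from the cytoskeleton, was opposite (2.47 ± 0.09), and BCL2A1, an anti-apoptotic BCL2 relative, rose in both lines and more in OCI-AML3 (2.01 ± 0.17).

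Immediate early and MAP kinase feedback genes had 8 of 14 members more positive in OCI-AML3 and 5 in OCI-AML2 (median 1.14). With scaling by medians of ratios the second count was 3. FOS (2.18 ± 0.12), IER3 (2.42 ± 0.11) and DUSP10 (1.23 ± 0.10) rose in OCI-AML3 but fell in OCI-AML2. FOSB, the close relative of FOS, fell in OCI-AML3 from 18.8 to 1.52 (clone 1) and 2.58 TPM (clone 2) (-2.43 ± 0.11). ETV4 fell in OCI-AML3 alone (-2.24 ± 0.15). The 7 called of 9 cell cycle genes had 5 more positive in OCI-AML2 and 2 in OCI-AML3 (median -0.99), not far from the background shares. PLK1, a mitotic kinase, fell in OCI-AML3 from 79.6 to 37.2 (clone 1) and 52.8 TPM (clone 2) and passed as higher in clone 2 of OCI-AML2 alone, from 115 to 136 (clone 1) and 372 TPM (clone 2) (-1.78 ± 0.15). CDKN2B, the inhibitor p15, rose in OCI-AML3 (2.07 ± 0.12), and CDKN2A, its neighbour in the genome, fell there (-1.37 ± 0.16).

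Growth factor pathways were also mixed. For the IGF and mTOR list 4 of 9 were called as more positive in OCI-AML2 and 3 in OCI-AML3 (median -0.80), near the background. IGF1R, the IGF-1 receptor, rose in OCI-AML2 from 9.75 to 11.4 (clone 1) and 18.8 TPM (clone 2) and fell in OCI-AML3 from 7.75 to 1.02 (clone 1) and 1.09 TPM (clone 2) (-2.64 ± 0.09). IGFBP7 was opposite in the same sense (-2.35 ± 0.11), whereas IGFBP3, which sequesters IGF, rose in OCI-AML3 from 2.85 to 314 (clone 1) and 225 TPM (clone 2) and was near 0 in OCI-AML2 (6.11 ± 0.09). RICTOR, of mTORC2, was opposite with a positive sign (1.34 ± 0.12). For the Wnt, BMP and FGF list 9 of 15 were called as more positive in OCI-AML2 and 5 in OCI-AML3 (median -1.09). These counts too were not far from the background shares. The Wnt receptor FZD1 (-2.14 ± 0.13) and the FGF receptors FGFR1 (-2.04 ± 0.12) and FGFR4 (-1.22 ± 0.15) rose in OCI-AML2 and fell in OCI-AML3. SMAD1 fell in OCI-AML3 alone (-2.06 ± 0.09), and ID2 rose in both OCI-AML3 clones (1.52 ± 0.12).

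Among 3 metallothioneins, small proteins that bind zinc and copper, MT1A was negative and the others positive. MT1A fell in OCI-AML3 from 89.6 to 0.727 (clone 1) and 0.74 TPM (clone 2) (-5.94 ± 0.41), while MT2A rose in both lines, from 116 to 184 (clone 1) and 230.1 TPM (clone 2) and from 59.8 to 928 (clone 1) and 1148 TPM (clone 2) (3.28 ± 0.18), and MT1X rose in OCI-AML3 (1.31 ± 0.16). These genes are similar in sequence, and reads could be shared. In the glycolysis and glycogen list 4 of 7 were called as more positive in OCI-AML2 and 3 in OCI-AML3 (median -1.27). With so few members these counts were not far from the background shares. ENO2, the neuronal enolase, rose in OCI-AML2 from 3.25 to 18.4 (clone 1) and 7.11 TPM (clone 2) and fell in OCI-AML3 from 23.2 to 3.51 (clone 1) and 3.81 TPM (clone 2) (-3.95 ± 0.14). PYGM, muscle glycogen phosphorylase, rose in both lines, in OCI-AML3 from 0.3 to 197 (clone 1) and 222 TPM (clone 2) and in OCI-AML2 from 0.36 to 0.793 (clone 1) and 0.81 TPM (clone 2) (6.93 ± 0.09). HK3, a hexokinase of myeloid cells, rose in both OCI-AML2 clones (-1.73 ± 0.10), and FBP1, which reverses glycolysis, rose in OCI-AML3 and fell in clone 2 of OCI-AML2 (2.09 ± 0.09).

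**Figure D5:**
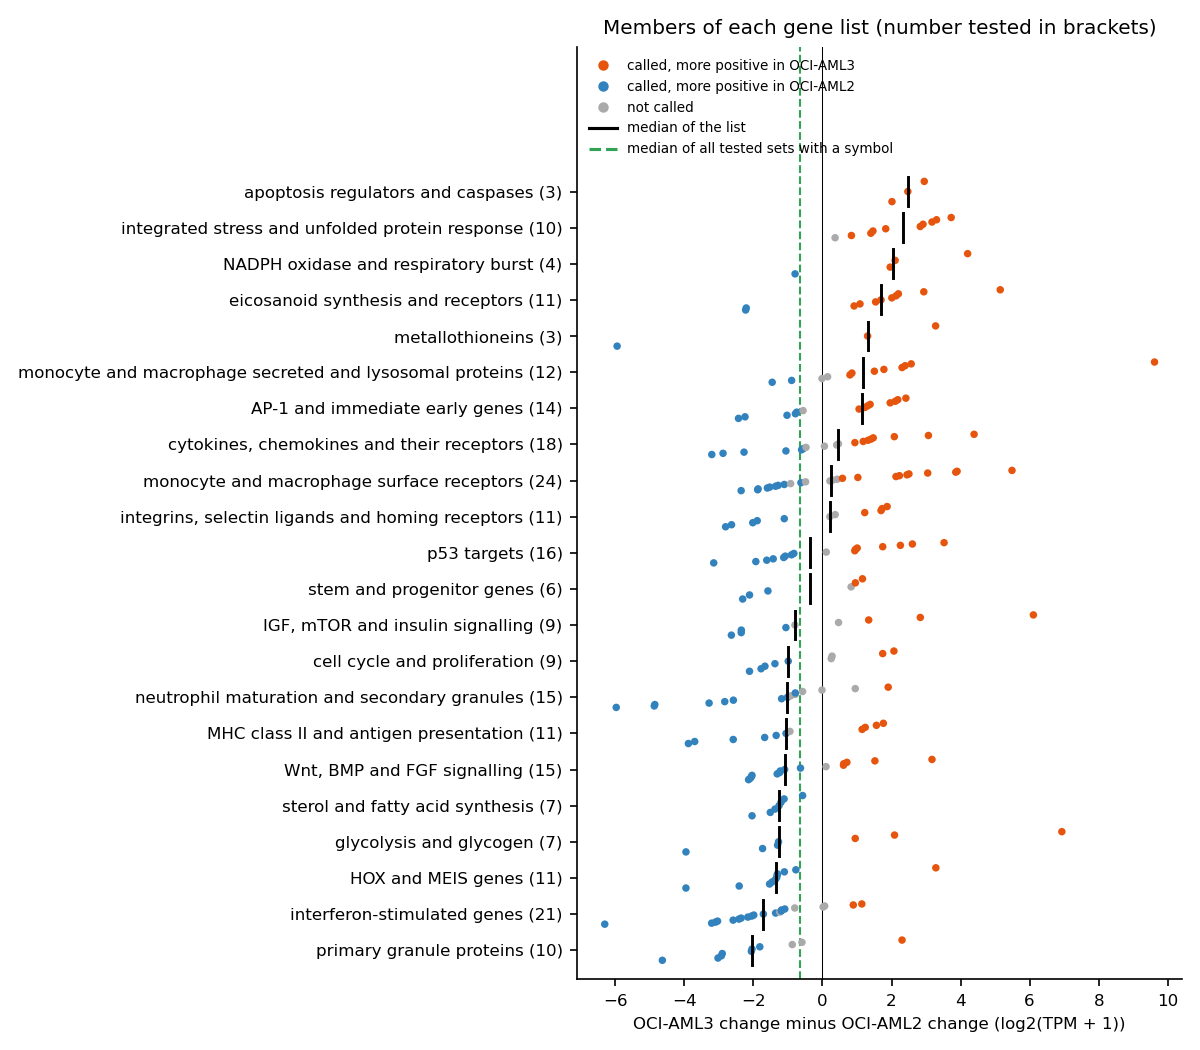
Difference between lines (x axis, OCI-AML3 change minus OCI-AML2 change on the log2(TPM + 1) scale) for each tested member of the 22 gene lists, ordered by the list's median (black bar). The green line is the median of all sets with a symbol, -0.64. Stress-response members lie to the right of 0, sterol genes to the left, and most interferon and HOX members to the left.

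Outside the lists, the largest opposite differences with a positive sign were COL8A2, a collagen of basement membranes (5.83 ± 0.09), NTSR1, the neurotensin receptor (5.35 ± 0.10), the retrotransposon-derived RTL8B (4.95 ± 0.13), PRAM1, a myeloid adaptor (4.87 ± 0.16), TGFBI, a matrix protein induced by TGF-beta (4.67 ± 0.09), and the sorting receptor SORCS2 (4.42 ± 0.10). COL8A2 fell from 50.8 to 24.6 (clone 1) and 14.6 TPM (clone 2) in OCI-AML2 and rose from 0.167 to 25.6 (clone 1) and 23.5 TPM (clone 2) in OCI-AML3. TGFBI fell from 53.9 to 20.3 (clone 1) and 5.55 TPM (clone 2) and rose from 4.26 to 25.9 (clone 1) and 29.5 TPM (clone 2). For COL8A2, NTSR1, RTL8B, TGFBI and SORCS2 the means of the OCI-AML3 clones lay within the range of the OCI-AML2 group means.

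Those with a negative sign were CRIP1, RASL11A, MAP1LC3A, GSTT1, MSRB3, TUBA4A and PPP1R27. CRIP1, a LIM domain protein, stood at 112.73, 95.28 and 164.48 TPM in parental OCI-AML2, 284.96, 319.84 and 292.71 in its clone 1 and 350.76, 239.93 and 290.33 in its clone 2. The OCI-AML3 libraries held 360.98, 368.17 and 366.04 TPM in parental OCI-AML3, 22.93, 36.05 and 34.09 in its clone 1 and 26.14, 31.42 and 28.5 in its clone 2. Clones and parental libraries did not overlap in either line, and the 4 pairings lay close together (-4.93 to -4.8) around -4.86 ± 0.22. MAP1LC3A, an LC3 protein of autophagosomes, rose from 0.24 to 12.2 (clone 1) and 13.4 TPM (clone 2) and fell from 277 to 115 (clone 1) and 116 TPM (clone 2) (-4.74 ± 0.15). TUBA4A, an alpha-tubulin, rose from 45.8 to 78.9 (clone 1) and 118 TPM (clone 2) and fell from 12.1 to 0.377 (clone 1) and 0.317 TPM (clone 2) (-4.33 ± 0.15). RASL11A, a Ras-like GTPase (-4.8 ± 0.28), GSTT1, a glutathione transferase (-4.46 ± 0.22), and MSRB3, a methionine sulfoxide reductase (-4.38 ± 0.15), did likewise. PPP1R27, a regulatory subunit of protein phosphatase 1, had the highest levels, 1154 to 1570.0 (clone 1) and 3068 TPM (clone 2) and 2765 to 250.4 (clone 1) and 303 TPM (clone 2) (-4.24 ± 0.16), and the table prints the same values under a second symbol too.

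Among genes changed in OCI-AML3 alone, TFAP2C (5.21 ± 0.08), MAGED1 (4.76 ± 0.10), SLC12A7 (4.35 ± 0.08), PDE9A (4.12 ± 0.11), EXOC3L2 (4.08 ± 0.11) and TMIGD3 (3.99 ± 0.14) rose with IGFBP3. MAGED1, an adaptor of death receptors, went from 0 to 25.4 (clone 1) and 26.9 TPM (clone 2) in OCI-AML3. ZASP rose with a wide error (4.2 ± 0.71). It stood at 0, 0 and 0 TPM in parental OCI-AML3, 1.39, 24.1 and 26.55 in its clone 1 and 17.9, 28.87 and 39.74 in its clone 2, and the first library of clone 1 lay far below the other clone libraries. S100A16 (-5.5 ± 0.16), DTX3 (-4.23 ± 0.08), PDLIM4 (-4.03 ± 0.11), the homeobox gene BARX1 (-3.83 ± 0.19), ZNF239 (-3.79 ± 0.10), PAM, which amidates peptide hormones (-3.55 ± 0.11), and GNG4 (-3.52 ± 0.10) fell with MT1A. DTX3, PDLIM4, ZNF239, GNG4 and MT1A were listed at or near 0 in every OCI-AML2 group, where no fall could be seen. PAM went from 19.4 to 17.7 (clone 1) and 16.8 TPM (clone 2) in OCI-AML2, where neither clone passed. In OCI-AML3 PAM went from 22.6 to 0.777 (clone 1) and 0.803 TPM (clone 2), so here both parental lines held the transcript.

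Changed in OCI-AML2 alone, and downward, were MGAM2 (3.99 ± 0.07), GALNT11 (2.96 ± 0.11), CD69, an early activation receptor (2.56 ± 0.17), SMARCD3, a subunit of SWI/SNF complexes (2.11 ± 0.15), and RHOXF2B (2.06 ± 0.12), which has a near-identical copy. MGAM2, CD69 and RHOXF2B were listed at or near 0 in every OCI-AML3 group, where no fall could be seen. GALNT11, a glycosyltransferase, went from 7.72 to 0 (clone 1) and 0 TPM (clone 2) in OCI-AML2. In OCI-AML3 it went from 44.1 to 40.1 (clone 1) and 39 TPM (clone 2). The rises in OCI-AML2 alone were led, after CEACAM6 and the S100 genes, by PTPRCAP, a partner of CD45 (-4.86 ± 0.18), and HTRA3, a serine protease (-4.63 ± 0.08). PTPRCAP rose from 0.967 to 70.8 (clone 1) and 53.2 TPM (clone 2) in OCI-AML2 and stayed at 1.82 to 1.97 (clone 1) and 2.12 TPM (clone 2) in OCI-AML3.

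Same-direction changes of unequal size were led by PYGM, CYBB and MT2A, then AKR1C3, SUSD3 (2.27 ± 0.19), GAS6, a ligand of the receptor AXL (2.12 ± 0.12), and CYTH4 (2.12 ± 0.10), which all rose more in OCI-AML3. APBA1 had a positive difference because it fell further in OCI-AML2, from 13 to 0.37 (clone 1) and 0.17 TPM (clone 2) against 0.457 to 0.07 (clone 1) and 0.1 TPM (clone 2) (3.04 ± 0.09). Negative differences belonged to ST6GAL1, which adds sialic acid to glycans (-3.87 ± 0.10), PLTP, a phospholipid carrier (-3.48 ± 0.11), MAP4K1 (-2.92 ± 0.14), PROCR, the protein C receptor (-2.82 ± 0.19), and ADGRL2 (-2.6 ± 0.11), all of which fell in both lines and further in OCI-AML3. In OCI-AML2 the ADGRL2 means were low, from 1.38 to 0.813 (clone 1) and 0.81 TPM (clone 2). KRT81, a hair keratin, rose further in OCI-AML2 (-2.5 ± 0.12). In OCI-AML3 its means stayed near 0, from 0 to 0.277 (clone 1) and 0.417 TPM (clone 2).

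For 900 sets the mean difference passed but not all 4 pairings did, and in 236 of these the pairings differed in sign. HIST1H1C, a linker histone, went from 21.2 to 115 (clone 1) and 13.4 TPM (clone 2) in OCI-AML2, so clone 1 rose and clone 2 fell, and its pairings ran from -0.8 to 2.66. NOXA1, an activator of NADPH oxidase 1, ran from -2.17 to 0.58 and EFEMP2, an elastic fibre protein, from -2.24 to 0.39. ORM1, the acute phase protein orosomucoid, ran from -0.41 to 2.31, MZB1, a chaperone of secretory B cells, from -2.05 to 0.19, and DEFA1B, a copy of DEFA1, from -3.19 to 0.04. Just inside the threshold of the call lay GPNMB and FDXR (highest limma adjusted p 0.0247 and 0.0252), and just outside it lay OASL (0.104). EFEMP2 had a highest limma adjusted p of 0.0632, but its pairings differed in sign, which kept it uncalled at any p.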

How the data were processed

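RNA of 18 libraries was sequenced, and the authors deposited 1 table of TPM values, per the file headers. The genome build, like the aligner and the annotation, is not given in the sources used here. The depth of each library is unknown. The table has 6999 lines under 4816 symbols, which hold 5069 distinct sets of 18 values, and 1319 of these sets stand under 2 symbols. A symbol was settled for 2517 sets (49.7%). Where a pair of lines held the OCI-AML3 clone 1 values in rotated order, the line reading a, b, c against b, c, a kept its symbol (1522 sets). Further symbols were settled where a symbol repeated with the same values. Values printed once kept their symbol where the 2 parental cell lines differed by less than 0.7 on the log2 scale. They also kept it where both OCI-AML3 clones in the same direction, or OCI-AML2 clone 1, changed by at least 1.5 at 3 TPM or more. These thresholds were chosen after seeing the table. The last rule named 127 sets by changes that were then tested. Sets with a symbol were called more often (81.1%) than all tested sets (61.3%). Of the settled symbols, 2497 matched a gene identifier. Unsettled sets were counted but not named, and 2 Y-linked genes are not reported.

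Sets that reached 1 TPM in 3 or more libraries were tested on the log2(TPM + 1) scale, using limma 3.58.1 (R 4.3.3). The model held 6 group means and an intensity trend, and p-values were adjusted by Benjamini-Hochberg over all tested sets. The 4 pairing contrasts and their mean were tested, and a script of the same form was tested on simulated data. The members and gene lists were chosen with earlier results of these data known. Named genes were the 8 sets with the largest difference per pattern and direction with a mean of at least 10 TPM in a group, the 4 members of each list with the largest difference and any needed to account for its count, CASP2, and the 6 sets whose pairings ranged most widely among those passing by their mean alone. Alternatives were another scaling, pseudocount, minimum, fit and call rule, a replicate block and leaving out each library. Some list members that were tested and counted are not reported by name here.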

Additional observations from a re-analysis of the deposited data

Results flagged for a closer look

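The following differences between OCI-AML2 and OCI-AML3 were themselves tested, by the limma contrast of the 2 changes in all 4 clone pairings. The change differed in 2707 of 4413 sets, and in 559 it went in opposite directions. Of the genes with a positive difference, the values were 5.83 for COL8A2, 5.49 for CD14, 5.35 for NTSR1, 5.15 for ALOX5AP, 4.95 for RTL8B, 4.87 for PRAM1, 4.67 for TGFBI and 4.42 for SORCS2. Of those with a negative difference, they were -6.3 for IFI27, -4.86 for CRIP1, -4.8 for RASL11A, -4.74 for MAP1LC3A, -4.46 for GSTT1, -4.38 for MSRB3, -4.33 for TUBA4A and -4.24 for PPP1R27.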

How the results depend on the processing

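The count of 2707 called sets was 2675 with medians of ratios, 2584 with a pseudocount of 0.1 TPM, 2710 without an intensity trend, 3075 of 5069 with no minimum, 1991 of 3239 with a minimum of 5 TPM, 3371 where the mean contrast passed and the 4 pairings shared a sign, and 2521 to 2704 when each library was left out in turn. It was 1297 (490 more positive in OCI-AML3 and 807 in OCI-AML2) where all 4 pairings had to reach 1 on the log2 scale, and 1140 of 1617 (528 and 612) among sets whose parental lines differed by less than 0.95. With the 5 TPM minimum, 218 sets changed in OCI-AML2 alone and 365 in OCI-AML3 alone. With the replicate number as a block the count was 2698, although the numbers do not pair the libraries: over 45 pairs with the same number the deviations from group means correlated at -0.34 to 0.18, with a median of -0.03. Scaling by medians of ratios moved the share of positive calls from 39.5% to 47.4%. The cause of these shifts was not tested, beyond the fewer sets that a higher minimum or the parental restriction leaves. With a pseudocount of 0.1 TPM, the sign reversed for CLEC12A (-1.83) and FGF2 (-1.15), which were then called, and for FCGR2B (-0.061), FPR2 (0.095, called at -0.78 with a pseudocount of 1), GBP4 (-0.95), IFIT3 (-1.32) and TNFRSF10C (-0.42), and with medians of ratios for MMP9 (0.15). Leaving out 1 library gave differences on both sides of 0 for 4 genes that were not called, from -0.013 to 0.056 for GBP4, -0.0012 to 0.19 for IFIT3, -0.16 to 0.095 for MMP9 and -0.036 to 0.22 for TNFRSF10C. Some counts of list members more positive in OCI-AML2 that moved by over 1.5 times are given with their lists above. Further ones were 14 against 9 for the Wnt, BMP and FGF list with no minimum. For immediate early genes the count was 3 against 5 with a pseudocount of 0.1 TPM as well. With the 5 TPM minimum it was 1 against 2 for eicosanoid genes and for secreted macrophage proteins.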
